A study of Drosophila melanogaster with 4 samples.

Results

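Packed H3K9ac clusters are enriched regions that follow each other along a chromosome arm with little space between them. They were taken from the series-wide list of enriched regions, termed clusters here, which the authors deposited for the replicate set. On X, 2L, 2R, 3L and 3R, neighbouring clusters were linked when the gap between them was at most 1000 bp. Clusters under 8000 bp wide in linked runs of 4 or more clusters were the members. The list held 12322 clusters, 12155 of them on these 5 arms, and 1343 were packed, in 309 runs. The same runs held a further 128 clusters of 8000 bp or more, which count towards run length and are not members.

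The series profiled H3K9ac by chromatin immunoprecipitation and sequencing in whole embryos of Drosophila melanogaster, wild-type strain Oregon-R, aged 14 to 16 h. It has 2 H3K9ac ChIP samples and 2 input samples without antibody, all of this one strain, genotype and stage. Each ChIP sample has its own cluster list, and no list of the inputs was used here. Whether the replicates are separate collections of embryos is not in the labels, and their spread may reflect handling alone. An embryo of this age mixes many cell types, and the lists cannot tell whether neighbouring clusters were acetylated in the same cells.

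H3K9ac is the acetylated form of lysine 9 on histone H3. In Drosophila the acetyl group is placed mainly by Gcn5, the catalytic subunit of the SAGA and ATAC complexes, and deacetylases remove it. The mark is found around the starts of transcribed genes, and acetylated tails loosen the hold of nucleosomes on DNA and are read by bromodomain proteins. Fly genes lie close together, many of them back to back, so that several marked starts can fall within a short stretch. At this stage the embryo has formed its organs, and muscle, nerve and cuticle are differentiating.

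The list of ChIP replicate 1 had 8495 clusters and that of replicate 2 had 6772, so replicate 2 offers fewer clusters to meet. Positions are those of the files, in FlyBase release 5, counted from 1, and regions are named by position because no annotation of that release was used here. Scores are the authors' own value for each cluster and were used to describe and rank clusters within a list. Read depth is unknown, and 95% Wilson intervals cover counting error alone. Gaps, widths, run lengths and series-wide scores come from the list whose gaps, widths and run lengths the members were chosen by, and are given as a description. The series-wide list was made for the same ChIP samples, so overlap with the replicates is a description as well. With 2 replicates, an exact two-sided permutation test cannot give p under 0.333 for separate sets of values, or under 0.5 for values paired within a replicate, so no difference below was tested.

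Most runs were short. Of the 309 runs, 182 had 4 clusters, 73 had 5, 25 had 6, 16 had 7 and 9 had 8, and single runs had 9, 10, 12 and 13. Span from the first to the last base ran from 5.89 to 70.4 kb, with a median of 15.0 kb, and all runs together spanned 5.70 Mb, or 4.79% of the 119 Mb of the arms. Clusters filled a median of 91.7% of a run, with a lowest value of 73.4% and a highest of 99.2%. In the series-wide list the runs are therefore nearly continuous stretches of enriched sequence cut by short breaks. With linked gaps of at most 1000 bp, a high filled share is in part built in.

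The breaks were mostly much shorter than the limit that links clusters. The median of the 1162 gaps inside runs was 305 bp, with quartiles of 124 and 588 bp, and 242 of them, or 20.8%, were under 100 bp. In the linked pairs and triples of the list the median was 367 bp over 2391 gaps, and 15.6% were under 100 bp. Among all neighbours on the arms, the number of gaps per 100 bp fell from 610 at 0 to 99 bp to 217 at 900 to 999 bp, and stood at 191 just past the limit, at 1000 to 1099 bp. A gap limit of 1000 bp thus lies in the flat part of this distribution.

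**Figure D1:**
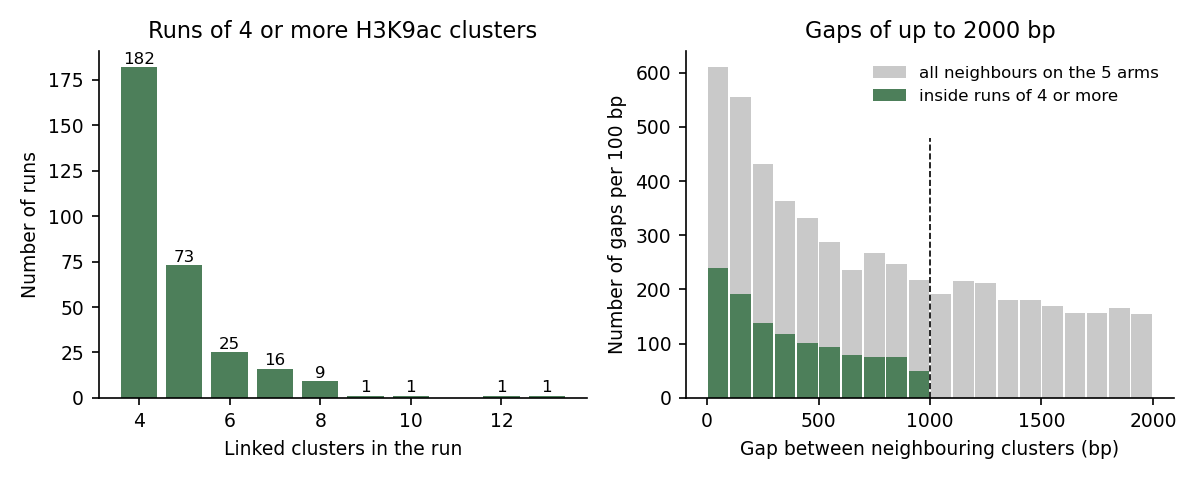
Left, number of runs by the number of linked clusters they hold. Right, number of gaps between neighbouring clusters per 100 bp, for all neighbours on the 5 arms in grey and inside runs of 4 or more in green, with the dashed line at the limit of 1000 bp; 182 of 309 runs have 4 clusters, and short gaps are the most frequent.

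The run with the most clusters lay on 3L at 12551890 to 12600916. It held 13 clusters in 49.0 kb, of which 12 were members and 1 was 10.5 kb wide, with gaps of 45 to 965 bp. Its series-wide scores ran from 0.267 to 0.906. Replicate 1 had 12 clusters in this span that overlapped 13 of the 13 and covered 75.4% of it. Replicate 2 had 10 clusters that overlapped 9 of the 13 and covered 39.3%. The run was thus met by both replicates along its length, with more open stretches in replicate 2.

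Next was a run of 12 clusters on 2R at 20683606 to 20744528 that spanned 60.9 kb. It was met by 13 clusters of replicate 1 and by 16 of replicate 2, which covered 72.5% and 63.2% of the span. Each replicate overlapped 10 of its 12 clusters, and the clusters without overlap were the same ones in both, at 20705948 to 20707544 and at 20713666 to 20715194. These were 1597 and 1529 bp wide, with series-wide scores of 0.436 and 0.316. A run of 10 clusters on 2L at 5221750 to 5259958 spanned 38.2 kb, of which replicate 1 covered 80.6% and replicate 2 covered 47.7%. Replicate 1 overlapped 9 of these 10 clusters and replicate 2 overlapped 5.

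**Figure D2:**
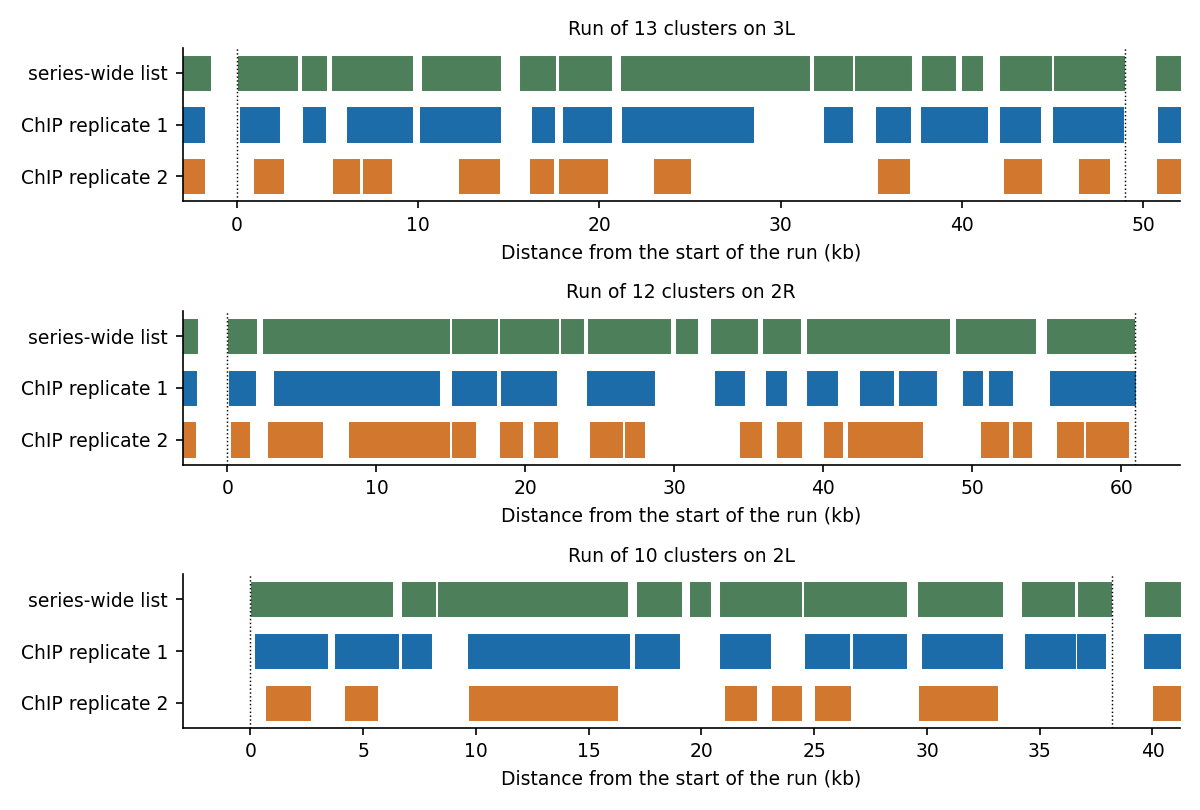
Maps of the 3 runs with the most clusters, with distance from the start of the run in kb and dotted lines at the ends of each run. Boxes are clusters of the series-wide list (green), ChIP replicate 1 (blue) and ChIP replicate 2 (orange), and replicate clusters cover 75.4%, 72.5% and 80.6% of the runs in replicate 1 and 39.3%, 63.2% and 47.7% in replicate 2.

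The other 7 of the 10 runs with the most clusters had 8 or 9 clusters each, and among the 9 runs with 8 the 6 with the longest spans were taken. The one with 9 lay on 3L at 13081770 to 13119370, and replicate 1 covered 73.0% of it and replicate 2 covered 30.8%. Of those 6, 2L held 2, at 8836240 to 8877014 and at 1423604 to 1458736, and so did 2R, at 4064824 to 4099502 and at 3033522 to 3063554. The others were 3R at 25356074 to 25405720 and 3L at 3841788 to 3874008. Replicate 1 covered 54.2% to 84.8% of these 7 runs, and replicate 2 covered 9.82% to 50.3%. The 3 shorter runs of 8, which start on 2L at 20981140 and on 2R at 6956596 and 7428652, were covered to 56.5%, 51.7% and 47.0% by replicate 1 and 12.2%, 14.7% and 11.6% by replicate 2. In each of the 10 runs the covered share was higher in replicate 1. The widest gap between the replicates was in the 3L run at 3841788 to 3874008, of which replicate 1 covered 69.4% and replicate 2 covered 9.82%.

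On X, the run with the most clusters had 7, at 9621256 to 9663296, and spanned 42.0 kb. Replicate 1 covered 84.2% of it and overlapped 6 of its 7 clusters, while replicate 2 covered 58.1% and overlapped 5. The run with the longest span, named after its values were seen, lay on 3R at 8050960 to 8121382. It had 4 clusters in 70.4 kb, of which 43.3 kb was a single wide domain, and 1 was a member. Replicates 1 and 2 covered 95.6% and 68.7% of it.

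Packed clusters were of ordinary width. Their median width was 2137 bp, with quartiles of 1486 and 3496 bp, against 2007 bp with quartiles of 1379 and 3017 bp for the 10399 other clusters under 8000 bp on these arms. Their median score was 0.436, at the 41.6 percentile of the series-wide list, against 0.460, at the 49.2 percentile, for the others. High scores were few among them: 45 of 1343 packed clusters, or 3.35%, lay in the top decile of the list, against 1098 of 10399, or 10.6%, of the others. The clusters of pairs and triples lay between, with 9.13% in the top decile, and unlinked clusters had 11.5%.

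The score gap between packed and other clusters was largest among wide ones. At 3 to 5 kb the median score was 0.518 for packed clusters and 0.834 for others, and at 5 to 8 kb it was 0.594 and 0.823. At 2 to 3 kb it was 0.471 and 0.567. Under 2 kb the medians were close, at 0.391 and 0.377 for 1.5 to 2 kb and 0.394 and 0.413 for 1 to 1.5 kb. The clusters of pairs and triples again lay between, with 0.700 at 3 to 5 kb and 0.713 at 5 to 8 kb, where unlinked clusters had 0.906 and 0.942. Lower scores at these widths were thus shared by linked clusters in general.

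Scores varied within runs. The highest score of a run had a median of 0.615 over runs and the lowest a median of 0.358. The highest-scoring cluster was also the widest in 161 of the 309 runs. It stood at an end of the run in 136 runs, or 44.0%, while end clusters made up 42.0% of all clusters in runs. The 571 end members and the 772 inner members had median widths of 2145 and 2129 bp and median scores of 0.438 and 0.434. These medians lay close together.

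The 5 packed clusters with the highest series-wide scores were all inner clusters of runs of 4. The first lay on 3R at 10714396 to 10717800, where the series-wide score was 2.35 and the best replicate scores were 2.37 and 2.43, while the other clusters of its run had a median of 0.918. A cluster on 3L at 260538 to 266258 had 2.11, 2.22 and 2.20 in the same order, beside neighbours with a median of 0.826. On X, the cluster at 1362806 to 1366698 had 1.99, 2.01 and 2.25, and its neighbours had a median of 0.918. In these 3 runs the median of the neighbours was below the top cluster, yet above the median of 0.436 for all packed clusters. The remaining pair lay side by side in a single run on 3R, at 7038750 to 7043682 with 2.11, 2.16 and 2.11, and at 7044330 to 7050682 with 2.04, 2.11 and 2.18.

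Runs were found on all 5 arms and were sparser on X. Per Mb, 3R had 3.01 runs, 2R had 2.93, 2L had 2.82 and 3L had 2.61, against 1.52 for X. Packed clusters made up 7.37% of the clusters of X (95% Wilson interval 6.31 to 8.60%), against 12.2% for 2R, 12.1% for 2L, 11.9% for 3R and 10.9% for 3L. For the autosome arms together the share was 11.8% (11.2 to 12.4%). X also had fewer clusters of any kind, at 89.5 per Mb against 105 on the autosome arms, a ratio of 0.852, while the ratio for runs per Mb was 0.533. Of neighbouring clusters on X, 26.4% were linked, against 29.8% on the autosome arms. The part that the lower cluster density of X had in this was not tested.

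**Figure D3:**
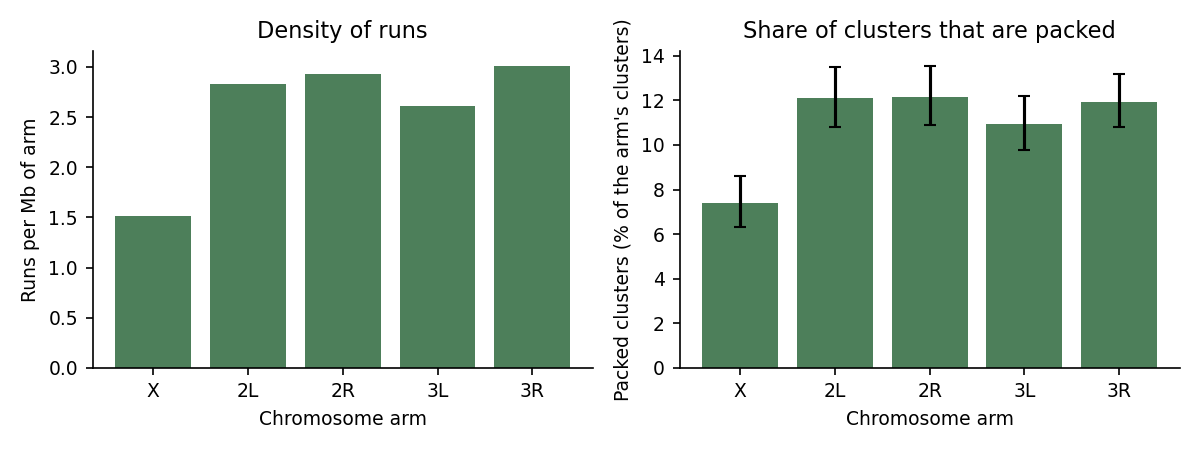
Left, runs of 4 or more linked clusters per Mb of each arm. Right, packed clusters as a percent of all series-wide clusters of the arm, with 95% Wilson intervals as error bars; X has 1.52 runs per Mb and 7.37% packed clusters, and the autosome arms lie between 2.61 and 3.01 runs per Mb and between 10.9% and 12.2%.

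Members on X had a median score of 0.489, at the 56.5 percentile of the list, against 0.523 for other X clusters under 8000 bp. On the autosome arms the medians were 0.430 and 0.446. Replicate 1 overlapped 56.1% of the packed clusters of X and replicate 2 overlapped 38.5%. On the autosome arms together these shares were 64.7% and 40.3%. For the other clusters of X, shares over all widths were not taken. At 2 to 3 kb, replicates 1 and 2 overlapped 88.0% and 67.8% of the 441 other clusters of X. Both values were the lowest of the 5 arms. The 31 packed clusters of X at that width had 71.0%, the lowest of the arms, and 61.3%, the highest. Whether the lower shares on X belong to packed clusters or to X clusters in general was not tested.

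Packed clusters were unevenly spread along the arms. Of the 117 complete 1-Mb bins, 18 held no member, 5 of these among the 22 bins of X, and the median bin held 10. The bin with the most was 2L at 5000001 to 6000000, where 44 of 136 clusters were packed, in 8 runs, among them the run of 10 named above. Next came the first bin of 3L, at 1 to 1000000, with 39 of 135 clusters in 9 runs, and 3L at 14000001 to 15000000, with 31 of 123. The 11 bins with the most members held 320 of them, or 23.8%, in 9.40% of the bins. These bins were ranked by their members, and members come in runs, so some excess is built in. The share of all clusters that lay in them was not taken.

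Apart from X, the stretches nearest the centromeres held few packed clusters. The 3 bins without members that also had the fewest clusters were 3L at 23000001 to 24000000 with 9 clusters, 2R at 1 to 1000000 with 16 and 2L at 22000001 to 23000000 with 40. In the 1 Mb of assembled sequence nearest the centromere, 9 of 248 clusters over the 5 arms were packed, or 3.63%, and 8 of the 9 lay on X, among 61 clusters there. At the other end of the arms, 112 of 644 were packed, or 17.4%. There, 3L had a share of 28.9%, 2R of 19.9%, 3R of 17.8%, X of 12.9% and 2L of 7.19%. Stretches with similar numbers of clusters differed in packed ones: the first 1 Mb of 3R held 124 clusters with 1 member, while the first 1 Mb of 3L held 135 with 39.

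Replicate 1 overlapped, by at least 1 bp, 856 of the 1343 packed clusters, or 63.7% (61.1 to 66.3%), where 64.1% of all clusters on the arms were overlapped. Replicate 2 overlapped 538, or 40.1% (37.5 to 42.7%), where the value for all clusters was 47.5%. The mean of the replicates was 51.9% ± 16.7 (SD, n = 2). Packed clusters met by both replicates numbered 481, or 35.8%, with 43.3% among all arm clusters. A further 375, or 27.9%, were met by replicate 1 alone, with 20.8% among all, and 57, or 4.24%, by replicate 2 alone, with 4.15% among all. The remaining 430, or 32.0%, were met by neither, close to the 31.7% among all.

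Set against the other clusters under 8000 bp, the share overlapped was 1.02 percentage points higher for packed clusters in replicate 1 and differed by -6.41 points in replicate 2. The mean difference of -2.69 ± 5.25 points is smaller than its spread, and its sign is that of replicate 2. End members of runs were overlapped at 61.1% in replicate 1 and inner members at 65.7%, while in replicate 2 the shares were 39.9% and 40.2%. Where both replicates met a packed cluster, their best scores correlated over the 481 clusters with a Spearman coefficient of 0.656, against 0.850 over the other clusters met by both. Packed and other clusters also differ in their share of high scores, and no sets matched for score were compared. Clusters of one list share a library and are not independent, so these coefficients are descriptions.

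Recurrence rose steeply with width, and packed clusters of middle width recurred less than others. At 1 to 1.5 kb, replicate 1 overlapped 51 of 344 packed clusters, or 14.8%, and 14.4% of the others, while replicate 2 overlapped 4.94% and 4.58%. At 2 to 3 kb, replicate 1 overlapped 222 of 275 packed clusters, or 80.7% (75.7 to 85.0%), against 90.1% of 2614 others. Replicate 2 overlapped 132 of the same 275, or 48.0% (42.2 to 53.9%), against 71.2%. The mean difference in this class was -16.3 ± 9.78 points (SD, n = 2). Clusters of pairs and triples lay between, at 89.3% in replicate 1 and 66.3% in replicate 2, where unlinked clusters had 90.6% and 74.3%. In replicate 2 the lower share was thus in part common to linked clusters.

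At 3 to 5 kb the shares were 93.9% for packed and 97.8% for other clusters in replicate 1 and 68.9% and 86.5% in replicate 2. At 5 to 8 kb, 149 of 149 packed clusters were overlapped by replicate 1 and 89.9% by replicate 2, against 653 of 653 and 95.1% of the others. In replicate 2, packed clusters were thus the lower at each width from 1.5 kb up. Clusters of pairs and triples had 82.1% in replicate 2 at 3 to 5 kb, where unlinked clusters had 89.6%. At 5 to 8 kb they had 96.0%, above the 94.2% of unlinked clusters. The difference at 2 to 3 kb had the same sign on each of the 5 arms, from -3.48 points on 3L to -17.0 on X in replicate 1 and from -6.51 on X to -38.4 on 2L in replicate 2.

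Score moved with this difference. In the middle score class, with series-wide scores between 0.410 and 0.541, packed clusters of 2 to 3 kb were overlapped at 80.3% by replicate 1 and 38.2% by replicate 2, against 84.2% and 49.2% of the others. The median scores in that class were 0.462 and 0.465. The mean difference there was -7.46 ± 5.02 points. In the highest score class the shares were 98.6% and 99.4% in replicate 1 and 90.3% and 95.7% in replicate 2, with median scores of 0.665 for packed and 0.824 for other clusters. The part of score in the lower recurrence was not tested beyond these values.

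**Figure D4:**
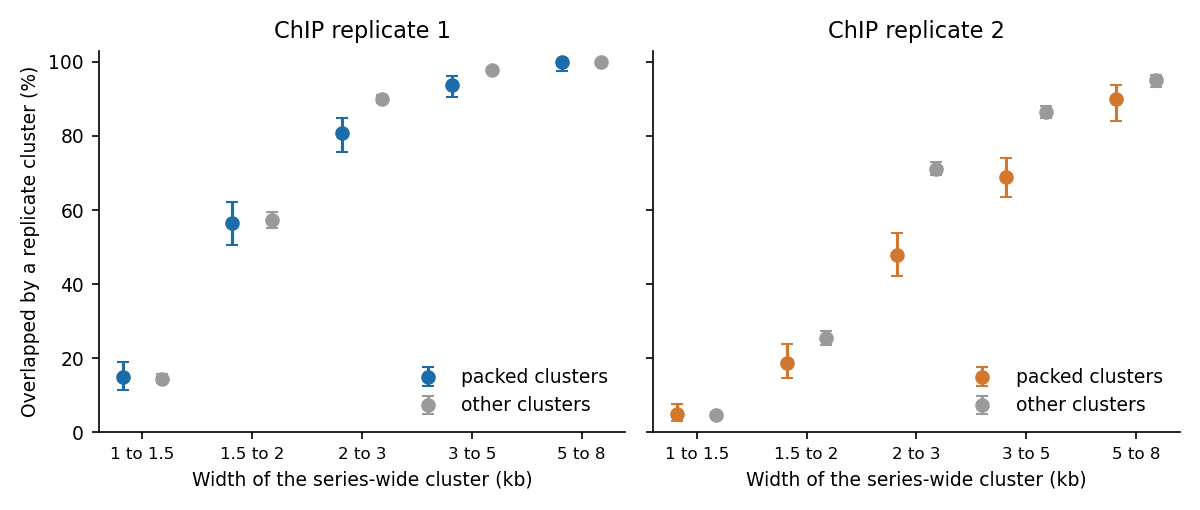
Percent of series-wide clusters overlapped by a cluster of ChIP replicate 1 (left) and ChIP replicate 2 (right), by width class in kb, for packed clusters in colour and other clusters under 8000 bp in grey, with 95% Wilson intervals. At 2 to 3 kb packed clusters lie below the others, at 80.7% against 90.1% in replicate 1 and 48.0% against 71.2% in replicate 2.

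The breaks inside runs were seldom closed in a replicate. A gap was counted as bridged when a single replicate cluster overlapped the clusters on both sides of it. Replicate 1 bridged 61 of the 1162 gaps inside runs, or 5.25%, where 4.08% of all gaps of at most 1000 bp on the arms were bridged. Replicate 2 bridged 11, or 0.947%, where the value for all such gaps was 0.873%. Replicate clusters covered 5.56% of the gap bases inside runs in replicate 1 and 2.02% in replicate 2.

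A gap can be bridged only where clusters on both of its sides recur. This was so for 559 gaps in replicate 1, and 498 of these, or 89.1%, were not bridged, so that 10.9% were, beside 8.54% over all such gaps on the arms. In replicate 2 it was so for 272 gaps, and 261, or 96.0%, stayed separate, so that 4.04% were bridged, beside 3.26% over all. Both sides recurred in both replicates at 242 gaps, and 224 of these were open in each. Most breaks were thus open where a replicate list held both neighbours. In pairs and triples, 92.6% in replicate 1 and 97.1% in replicate 2 stayed separate. The series-wide list covered 28.3% of the arms, replicate 1 covered 20.6% and replicate 2 covered 14.5%. Gaps are more readily open in lists that cover less, so these shares do not show that a break recurs.

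Open gaps were wider in the replicates. The median was 760 bp in replicate 1, where the same 498 gaps had 340 bp in the series-wide list, and 438 of them were wider in the replicate. In replicate 2 the median was 1507 bp, where the 261 gaps had 381 bp, and 258 were wider. Of these gaps, 187 in replicate 1, or 37.6%, and 174 in replicate 2, or 66.7%, exceeded 1000 bp, the limit that links clusters. Over all open gaps between linked clusters on the arms, which include these, the shares were 29.0% and 48.2%. Their medians were 706 and 973 bp, and 86.6% and 96.1% were wider in the replicate. Widening was thus not particular to runs. Bridged gaps were short: in replicate 1, 50 of the 61 were under 100 bp, and 36.0% of the gaps under 100 bp with both sides recurring were bridged, against 1.15% of those of 500 to 1000 bp. One gap was bridged in both replicates, a break of 3 bp on 3R at 15641874 to 15641878 in a run of 5.

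Most runs were covered in part by replicate clusters, although single members were often missed. Replicate 1 covered a median of 64.2% of a run, with quartiles of 47.8% and 77.2%, and replicate 2 covered 35.4%, with quartiles of 18.8% and 51.5%. The mean of these medians was 49.8% ± 20.4 (SD, n = 2). Runs are mostly enriched sequence by the way they were chosen, so the bases of clusters are the closer measure. Replicate 1 covered 65.9% of the bases of packed clusters and replicate 2 covered 37.1%. For the other clusters under 8000 bp on the arms these values were 69.2% and 50.0%. For all clusters on the arms, which include wider ones, they were 71.9% and 50.4%. Replicate 1 covered more than replicate 2 in 280 of the 309 runs, or 90.6%, and less in 26. The covered shares correlated over the 309 runs with a Spearman coefficient of 0.599, given as a description.

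Complete recurrence needs each of 4 or more clusters to be met at once. Single clusters on the arms were overlapped at 64.1% in replicate 1 and 47.5% in replicate 2, so a low share of complete runs is built in. No other set of clusters was counted in this way, and the counts are a description. Replicate 1 overlapped each cluster of the run in 62 runs, or 20.1%, replicate 2 in 19, or 6.15%, and both did so in 17. Replicate 1 overlapped no cluster in 10 runs, or 3.24%, and replicate 2 in 38, or 12.3%. At least 50% of the span was covered in both replicates in 77 runs, or 24.9%. The 97 runs with a cluster of 8000 bp or more were covered more, with medians of 76.8% and 45.5%, than the 212 without one, with 58.5% and 28.2%. Coverage was similar across run lengths: medians in replicate 1 were 64.6% for runs of 4, 60.1% for runs of 5 and 68.5% for runs of 6 or more, and in replicate 2 they were 36.1%, 34.1% and 35.8%.

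**Figure D5:**
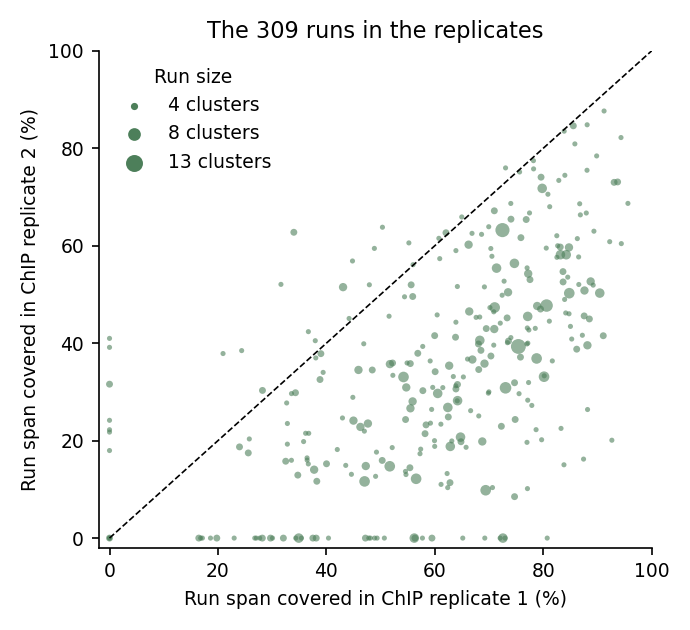
Each point is 1 of the 309 runs, placed by the percent of its span covered by clusters of ChIP replicate 1 (x axis) and ChIP replicate 2 (y axis), with larger points for runs of more clusters and a dashed line at equal shares. Replicate 1 covers more in 280 runs, and replicate 2 overlaps no cluster in 38.

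The runs most fully covered in both replicates had high scores. The first, on 3R at 7033798 to 7053824, had 4 clusters with a median score of 1.87, and replicates 1 and 2 covered 91.2% and 87.6% of its 20.0 kb with 4 clusters each. On 3L at 1295066 to 1309034, 4 clusters with a median score of 1.27 were covered to 88.1% and 84.8%. On 2R at 19907822 to 19927150, 5 clusters with a median of 1.47 were covered to 85.5% and 84.6%. In the first 2 of these runs each cluster was met in each replicate and no gap was bridged. In the 2R run each replicate met 4 of the 5 clusters, and replicate 2 bridged 1 gap. A run on 3R at 10710310 to 10725908 had 83.9% and 83.5%. The last of the 5 was 2L at 9575142 to 9619246, with 94.3% and 82.2%, the latter with a domain of 34.0 kb among its 4 clusters.

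At the other end were runs that replicate 2 left empty. Of those, the 5 with the most clusters and the longest spans had 7 or 5 clusters and median scores of 0.400 to 0.434. Arm 3L held 2 of them, at 18257318 to 18278468 and at 448758 to 469834, 3R held 2, at 20422918 to 20437458 and at 23643566 to 23658872, and 2R held 1, at 19209652 to 19223398. Replicate 1 covered 56.2%, 72.6%, 34.9%, 47.2% and 28.2% of them in this order. Neither replicate had a base in 3 runs, which were named after this was seen: 3L at 515096 to 520982, 3L at 8791706 to 8797744 and X at 1687876 to 1699524. These 3 had median scores of 0.435, 0.401 and 0.473.

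The same rule applied to the replicate lists gave fewer runs. Replicate 1 had 73 runs with 305 packed clusters, or 3.64% of its 8384 clusters on the arms, and its longest run had 9. Replicate 2 had 31 runs with 130 packed clusters, or 1.95% of 6653, and its longest run had 7. In the series-wide list the share was 11.05% of 12155. Of the 73 runs of replicate 1, 48, or 65.8%, met a series-wide run, and these met 48, or 15.5%, of the 309. Of the 31 runs of replicate 2, 13, or 41.9%, met a series-wide run, and these met 13, or 4.21%, of the 309. Most of the remaining replicate runs, 18 in replicate 1 and 14 in replicate 2, had at least 50% of their span inside series-wide clusters of 8000 bp or more. Within the 309 series-wide runs, replicate 1 had fewer clusters than the series-wide list in 201, or 65.0%, and replicate 2 in 235, or 76.1%. The median run held 3 clusters of replicate 1 and 2 of replicate 2, below the 4 that the rule needs. A series-wide run was thus mostly a stretch with fewer clusters in a replicate list. The runs were chosen for many series-wide clusters, and the replicate lists hold fewer clusters on the arms. Lower counts in the replicates are therefore in part built in, and no other stretches were counted in this way. Some runs of one list were a wide domain, or more widely spaced clusters, in another.

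Clusters just inside and just outside each limit of the rule had similar median scores, while their overlap with replicate 2 differed by several points at the width and gap limits. The 680 members of runs of 4 had a median score of 0.435, and replicates 1 and 2 overlapped 63.7% and 41.8% of them. The 1331 clusters under 8000 bp in linked triples had 0.443, 64.2% and 41.6%. The 45 members of 7 kb or more had a median score of 0.617, and replicate 2 overlapped 86.7% of them. The 34 clusters of 8 to 9 kb in runs had 0.630 and 94.1%. A gap limit of 1100 bp would add 133 members with a median score of 0.446, of which replicate 2 overlapped 42.9%. A limit of 900 bp would drop 138 with a median of 0.438, of which it overlapped 36.2%.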

How the data were processed

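The deposited files are 3 lists of enriched clusters, 1 for each H3K9ac ChIP replicate and 1 for the replicate set, in FlyBase release 5 per the file headers. Each cluster has a score deposited by the authors, whose unit is not stated. For the caller, its threshold, the aligner and the way replicates were combined, the sources used here give no answer. No list of the 2 input samples was used here.

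Clusters were sorted by start and linked across gaps of at most 1000 bp, where 6 neighbours that share 1 bp count as linked. Members, lists and tests were chosen with earlier results of these data known, and the comparison within width and score classes and that of open gaps were added here after values were seen. The comparison of packed with other clusters takes the 10399 non-members under 8000 bp on the 5 arms. Bins took clusters by midpoint, and arm ends took clusters lying wholly inside. Regions named were the 10 runs with the most clusters, the 5 with the highest and the 5 with the lowest covered share in the weaker replicate, the run with the most clusters on each arm, the 3 bins with the most and the fewest members, and the 5 highest-scoring members, unless stated otherwise. Alternatives changed the gap limit, run length, width limit, overlap, score minimum and replicate. The gene table at hand is of Release 6, coordinates were not converted, and genes, promoters and sequences were therefore not analysed here. Linking, overlap and bridging were tested on simulated data. Software versions were Python 3.11.15, scipy 1.17.1, pandas 2.3.3, matplotlib 3.10.9 and numpy 2.4.6.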

Additional observations from a re-analysis of the deposited data

How the results depend on the processing

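The number of packed clusters followed the rule. It was 507 with a gap limit of 500 bp, 3208 with 2000 bp, 2674 with runs of 3 or more, 663 with runs of 5 or more and 125 when linking the higher-scoring series-wide clusters (from the median up), in place of 1343, since each of these links fewer or more clusters. Using the higher-scoring clusters of each replicate (from the median up), so that fewer remain to meet, gave an overlapped share of 19.9% in place of 51.9% and a covered share of runs of 20.7% in place of 49.8%. The difference between packed and other clusters over all widths reversed to 9.93 points in the middle score class, from -2.69, and the cause was not tested. In that class, 120 packed and 1450 other clusters were 1 to 1.5 kb wide. At 3 to 5 kb there were 118 and 388. Packed clusters of that class were the lower in both replicates at 1 to 1.5, 2 to 3 and 3 to 5 kb. At 3 to 5 kb they had 91.5% and 55.9%, against 93.6% and 60.6%. At 1.5 to 2 kb they were the higher in replicate 1, with 54.3% against 48.8%. In replicate 2 at 5 to 8 kb they had 79.5% against 79.1%. The middle score class and the other settings for both differences were added after the values were seen. Bridged gaps, 3.10% as reported, came to 1.03% with the higher-scoring replicate clusters, and to 4.57% and 1.89% with gap limits of 500 and 2000 bp. A different count gave 5.94%. It took gaps with at least 50% of their bases covered by any replicate clusters, whether or not 1 cluster reached both sides. The difference at 2 to 3 kb went from -16.3 to -7.46 points in the middle score class. The spread of 2 replicates is as wide as several of these values, so staying within it says little about stability.

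With 1 replicate alone, the overlapped share ranged from 40.1% to 63.7%, bridged gaps from 0.947% to 5.25%, the covered share from 35.4% to 64.2%, the difference over all widths from -6.41 to 1.02 points and that at 2 to 3 kb from -23.2 to -9.36 points. The difference over all widths is positive without replicate 2 when an overlap of 1 bp is enough. When at least 50% of the cluster had to be overlapped, it was -1.61 points in replicate 1 and -11.2 points in replicate 2. No paired analysis was possible because no input list was used here to set beside a ChIP list. The differences between packed and other clusters were taken within each replicate, without a test. Without read depth, its limits cannot be given.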

Other observations

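Runs lay in stretches that were rich in clusters beyond their own ends. The gap from the end of a run to the next cluster outside it had a median of 2923 bp over 618 run ends, and 210 of these gaps, or 34.0%, were at most 2000 bp. Over the 8597 unlinked gaps of the arms, which include these, the median was 4703 bp and 20.7% were at most 2000 bp. The distance from a run to the nearest other run had a median of 74.3 kb. Another run lay within 20 kb of 88 of the 309 runs, or 28.5%, while 20 had none within 500 kb. No distance for a like number of other regions was set beside these values. Clusters of 8000 bp or more were frequent in runs, with 128 of 413, or 31.0%, against 1343 of 11742, or 11.4%, of narrower clusters. Over the 117 bins, members and clusters correlated with a Spearman coefficient of 0.681, given as a description of neighbouring bins. None of these differences was tested.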
